A study of Homo sapiens with 36 samples.

Results

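The clusters described here are those that covered a whole internal exon, that is, PAR-CLIP clusters that ran at least 1 nt into the introns on both sides of an exon that is neither the first nor the last of its transcript. They were found on the transcribed strand of GRCh38, against 1 isoform of each protein-coding gene of GENCODE 44, the one whose exons add up to the most bases. This annotation gave 155991 internal exons in 16612 genes, with a median length of 125 nt. Of the 278185 clusters in 18 lists, 90248 overlapped an internal exon and 11991 covered at least 1 such exon whole. Together these clusters covered 6091 different exons of 2521 genes. All lists came from HEK293 Flp-In T-REx cells, a human embryonic kidney line with a site for targeted integration of a transgene. FLAG-SCAF4 and FLAG-SCAF8 were expressed from doxycycline-inducible constructs made from open reading frame clones, so the tagged copies held no introns, and the parental line, which carries no tagged protein, served as the control. The tagged lines were picked as single clones, and the endogenous genes remained in them. The cells of all groups received 4-thiouridine (4SU) at 100 μM overnight and a pulse of 500 μM for 2 h, and were irradiated at 365 nm with 2000 J/m2. The sample labels give 100 ng/mL doxycycline for the tagged lines and none for the parental line, whereas the methods state a higher dose for all cells. FLAG IPs and inputs of each line gave 6 groups of 3 replicates, and the authors combined the soluble and chromatin libraries of each replicate before they called clusters. The lists held 18287 to 54404 clusters in the SCAF4 and SCAF8 IPs (together called SCAF IPs), 1621 to 9638 in the control IPs and 4567 to 12493 in the inputs. They hold no reads, so read depth is unknown, and the cell type could not be checked against expressed markers.

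SCAF4 and SCAF8 are related RNA-binding proteins that hold a CTD-interaction domain (CID), by which they contact the C-terminal tail of RNA polymerase II, and they act during transcription to prevent early polyadenylation. PAR-CLIP finds their contacts on RNA as T→C changes at crosslinked 4SU. Internal exons are defined during transcription by a 3′ splice site, which follows a pyrimidine tract and ends in AG, and by a 5′ splice site, which begins with GT and is read by U1 snRNA. In mature mRNA the introns are gone, so a cluster that runs into both introns lies over sequence that the spliced transcript does not hold as 1 piece. A cluster is a pile of overlapping short reads, and no single read has to span the exon. The aligner named for these data does not split a read over an intron.

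The sequences below show what such clusters covered, with exon bases in capitals and intron bases in lower case, from the transcribed strand of GRCh38. The first 6 are exons that all 6 SCAF IP lists covered and no input or control IP list covered, and each is printed over the stretch shared by the 6 clusters. They are exon 11 of KPNB1 (chr17:47668177-47668413, plus strand), exon 13 of MYO19 (chr17:36510716-36510968, minus strand), exon 44 of TRRAP (chr7:98959329-98959491, plus strand), exon 4 of NONO (chrX:71291753-71291974, plus strand), exon 13 of ABCF2 (chr7:151215603-151215739, minus strand) and exon 5 of DDX5 (chr17:64503187-64503350, minus strand).
KPNB1 exon 11: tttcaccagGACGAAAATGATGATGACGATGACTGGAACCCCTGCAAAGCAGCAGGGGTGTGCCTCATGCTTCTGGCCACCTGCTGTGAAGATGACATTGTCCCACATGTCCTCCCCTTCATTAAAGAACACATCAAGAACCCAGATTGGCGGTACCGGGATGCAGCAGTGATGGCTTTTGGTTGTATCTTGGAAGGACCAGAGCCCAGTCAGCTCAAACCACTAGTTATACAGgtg
MYO19 exon 13: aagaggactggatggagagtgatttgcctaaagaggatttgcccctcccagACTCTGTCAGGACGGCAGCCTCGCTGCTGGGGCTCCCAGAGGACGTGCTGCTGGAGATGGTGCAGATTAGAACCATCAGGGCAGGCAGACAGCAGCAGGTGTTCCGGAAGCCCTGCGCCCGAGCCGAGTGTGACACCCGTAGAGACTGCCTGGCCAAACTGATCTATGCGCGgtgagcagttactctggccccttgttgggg
TRRAP exon 44: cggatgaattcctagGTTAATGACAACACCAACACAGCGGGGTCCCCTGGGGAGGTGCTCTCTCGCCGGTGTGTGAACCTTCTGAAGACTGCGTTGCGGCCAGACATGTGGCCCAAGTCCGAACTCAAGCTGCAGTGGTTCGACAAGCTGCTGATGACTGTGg
NONO exon 4: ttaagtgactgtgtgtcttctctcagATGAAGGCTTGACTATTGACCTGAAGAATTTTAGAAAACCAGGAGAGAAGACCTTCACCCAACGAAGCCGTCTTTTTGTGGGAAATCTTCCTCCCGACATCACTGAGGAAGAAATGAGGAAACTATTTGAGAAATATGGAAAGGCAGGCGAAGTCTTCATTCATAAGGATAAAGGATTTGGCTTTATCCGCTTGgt
ABCF2 exon 13: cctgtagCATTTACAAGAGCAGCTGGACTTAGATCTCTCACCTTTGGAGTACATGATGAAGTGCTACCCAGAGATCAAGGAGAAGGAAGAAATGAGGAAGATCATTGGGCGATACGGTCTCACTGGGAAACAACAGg
DDX5 exon 5: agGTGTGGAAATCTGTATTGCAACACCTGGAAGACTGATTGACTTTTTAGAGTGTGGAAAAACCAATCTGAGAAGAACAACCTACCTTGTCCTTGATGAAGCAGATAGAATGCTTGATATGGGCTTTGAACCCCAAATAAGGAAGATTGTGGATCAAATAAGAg
Each shared stretch holds the intronic ag just before the exon and at least the g of the 5′ splice site after it. In MYO19 the shared stretch held 51 nt of the upstream and 30 nt of the downstream intron, whereas in DDX5 it held 2 nt and 1 nt.

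Exon-covering clusters made up a larger share of the SCAF IP lists than of the input lists. In the SCAF4 IPs, 4.49%, 7.16% and 6.82% of all clusters covered an internal exon in replicates 1 to 3, and in the SCAF8 IPs 4.09%, 4.15% and 4.14% did. The corresponding shares were 1.66%, 1.17% and 1.54% in the SCAF4 inputs, 1.78%, 1.25% and 1.41% in the SCAF8 inputs, and 1.93%, 0.723% and 0.965% in the control inputs. Every SCAF IP list lay above every input list. The exact (Clopper-Pearson) 95% interval reached from 3.84% to 4.34% for the SCAF IP list with the lowest share, SCAF8 IP replicate 1, and from 1.70% to 2.19% for the input list with the highest share, and these intervals cover counting error only. The mean share was 5.14% ± 1.45 (SD, n = 6) in the SCAF IPs and 1.47% ± 0.235 (SD, n = 6) in their own inputs. The difference of 3.67 percentage points was larger than the spread between lists (exact permutation test of the list labels, two-sided, p = 0.00216, the smallest that 6 lists against 6 allow; adjusted p = 0.00938 over the 13 tests of this set). The share of clusters that overlapped an internal exon at all was also higher in these IPs (30.8% to 41.3%) than in their inputs (19.2% to 25.5%). Among the clusters that overlapped an internal exon, 14.0% ± 3.09 covered one whole in the SCAF IPs and 6.34% ± 1.63 in their inputs, a difference of 7.67 percentage points (exact permutation p = 0.00216).

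**Figure D1:**
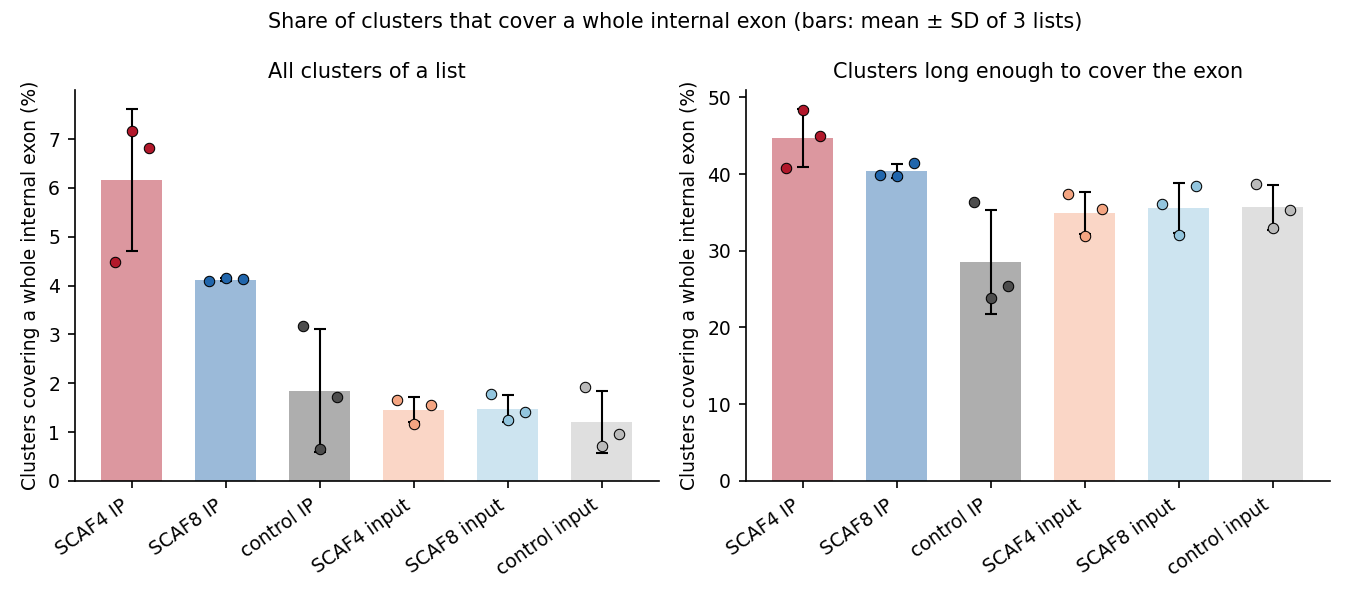
Share of clusters that covered a whole internal exon (y axis, %) in each list, over all clusters (left) and over the clusters long enough to cover the exon they overlapped (right). Points are lists and bars are means ± SD of 3 lists. All 6 SCAF IP lists lie above all 9 input lists in both panels.

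A cluster can cover an exon only if it is longer, and clusters of a given list differed in length. The median cluster length was 140 to 154 nt in the SCAF IPs and 136 to 160 nt in their inputs, so that the lists overlapped. Among clusters at least 2 nt longer than an internal exon they overlapped, 40.8%, 48.3% and 45.02% covered it in the SCAF4 IPs and 39.9%, 39.8% and 41.4% in the SCAF8 IPs. The inputs of both lines gave 31.9% to 38.5%. The means were 42.6% ± 3.40 and 35.2% ± 2.73 (SD, n = 6 each), and the difference of 7.30 percentage points was again beyond the spread between lists (exact permutation p = 0.00216, adjusted p = 0.00938). With the clusters split into 4 bins by how much longer they were than the exon, and the bins weighted equally, the difference was 5.74 percentage points (exact permutation p = 0.00433), and the ranges of the lists then overlapped (42.7% to 50.6% against 35.7% to 43.9%).

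The control IPs gave few such clusters. Their lists held 305, 15 and 28 clusters that covered an internal exon, or 3.16%, 0.648% and 1.73% of all clusters. The SCAF IPs exceeded them by 3.29 percentage points (exact permutation p = 0.0119, the smallest that 6 lists against 3 allow; adjusted p = 0.0310) and by 14.0 percentage points among clusters long enough (36.3%, 23.8% and 25.5% in the control IPs; p = 0.0119 and adjusted p = 0.0310 in the same exact test). Replicate 1 of the control IP, which held 9638 clusters, lay nearest to the SCAF IPs, and the other two lists held 2314 and 1621. The difference in the share of all clusters missed the threshold without control IP replicate 2 (2.70 percentage points) or replicate 3 (3.23 percentage points; exact permutation p = 0.0714 each). Replicate 1 of every group was sequenced with longer reads than replicates 2 and 3, and it had the highest share among the control IPs and in each group of inputs, but the lowest among the SCAF4 and among the SCAF8 IPs.

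The SCAF4 IPs had higher shares than the SCAF8 IPs, by 2.04 percentage points of all clusters (exact permutation p = 0.10, the smallest that 3 lists against 3 allow; adjusted p = 0.163) and by 4.34 percentage points of the clusters long enough (exact permutation p = 0.20, adjusted p = 0.26). The lists of the SCAF4 IP overlapped those of the SCAF8 IP in the latter measure, which fell to 2.54 percentage points without SCAF4 IP replicate 2 (exact permutation p = 0.30). With at least 10 nt in both introns the former was 0.951 percentage points (exact permutation p = 0.40). All 3 SCAF8 IP lists lay between 4.09% and 4.15% of all clusters although they held 18287 to 41502 clusters, whereas the SCAF4 IP list with the fewest clusters, 18991, also had the lowest share of its group. The difference between IP and own input was 4.70 percentage points for SCAF4 and 2.64 for SCAF8, and these did not differ beyond the spread of lists (exact permutation of the protein labels, p = 0.075, adjusted p = 0.525 over 7 such tests, none of which had an unadjusted p under 0.05).

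Many exons were passed by a few nucleotides on 1 side. Overhangs were counted from the exon end to the cluster end. They were not cut at the far end of the intron, so at short introns they can include the next exon. In the SCAF IPs, 3966 of the 10682 cluster-exon pairs had a shorter overhang of 1 to 3 nt. By list, 34.9% to 43.7% of pairs fell in this class in the SCAF IPs and 34.7% to 59.5% in the inputs, with 41.8% to 59.5% in the SCAF4 and SCAF8 inputs. Around the limit that defines these clusters, the numbers of pairs in the SCAF IPs were 901 at -1 nt, 1014 at 0 nt, 1501 at 1 nt, 1577 at 2 nt, 888 at 3 nt and 357 at 4 nt. The median exon was 124 nt long just outside the limit, at 0 nt, and 127 nt just inside, at 1 nt. At least 10 nt of both introns were covered in 38.0% to 48.7% of pairs in the SCAF IPs and in 27.9% to 46.7% in their inputs. Clusters past this stricter limit made up 2.34% ± 0.809 of the SCAF IP lists and 0.515% ± 0.190 of their inputs (SD, n = 6 each), a difference of 1.82 percentage points (exact permutation p = 0.00216). How far reads of spliced RNA, aligned a few bases past an exon end, took part in the pairs at 1 to 3 nt was not tested.

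**Figure D2:**
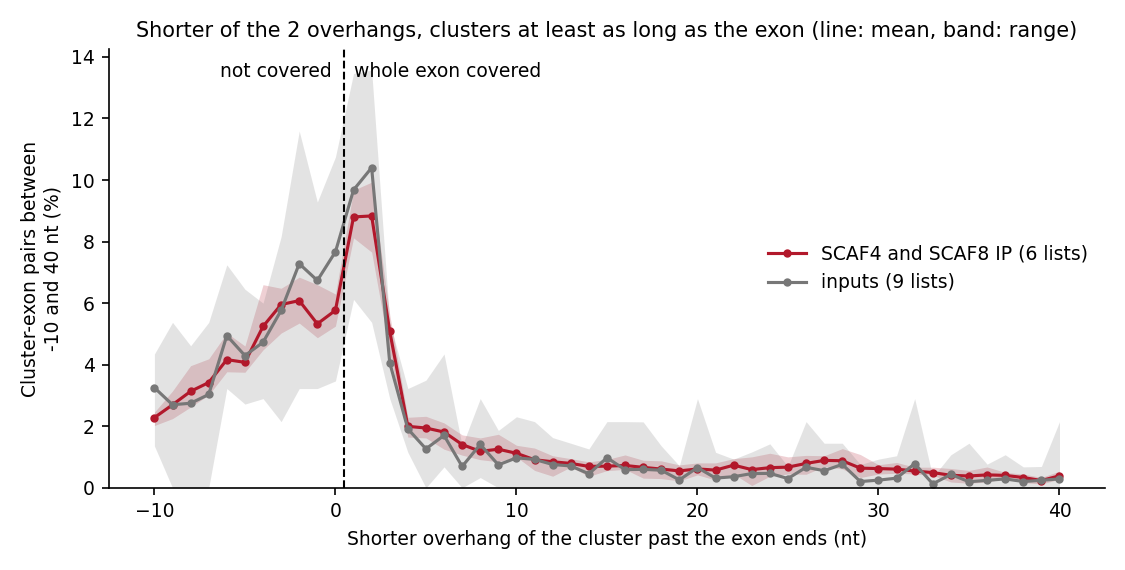
Cluster-exon pairs (y axis, % of the pairs between -10 and 40 nt) by the shorter of the overhangs past the exon ends (x axis, nt), for clusters at least as long as the exon. Lines are means and bands the range of 6 SCAF IP lists and 9 input lists, and the dashed line marks the limit of 1 nt. Both sets peak at 1 and 2 nt, where the SCAF IPs hold 1501 and 1577 pairs, and are lower at 3 nt (888 pairs) and 4 nt (357 pairs).

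SCAF IP clusters reached farther into the upstream than into the downstream intron. The median upstream overhang was 21, 40 and 39 nt in the SCAF4 IPs and 33, 40 and 40 nt in the SCAF8 IPs. The median downstream overhang was 15, 22 and 21 nt in the former and 20, 15 and 20 nt in the latter. The median of downstream minus upstream overhang over the pairs of a list was -4, -10, -11, -8, -14 and -10 nt in these 6 lists, with a mean of -9.50 nt (exact sign flips, two-sided, p = 0.0313, the smallest that 6 lists allow; adjusted p = 0.058). In the SCAF4 and SCAF8 inputs the same measure lay between -2 and 0.5 nt. The IPs differed from their inputs by -9.08 nt (exact permutation p = 0.00216, adjusted p = 0.00938), and the lists of IPs and own inputs did not overlap. The asymmetry was not particular to the tagged lines. The control IPs had medians of -19, -21 and -28 nt, from 307, 15 and 29 pairs, and the control inputs -1, -3.5 and -14 nt. With at least 10 nt required on both sides, the mean was -15.6 nt in the SCAF IPs and -5 nt in their inputs, whose lists reached from -13 to 5.5 nt and overlapped those of the IPs (exact permutation p = 0.0152).

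At 50 nt from the exon, 41.02% ± 6.22 of pairs in the SCAF IPs still reached into the upstream intron, and 18.8% ± 2.34 into the downstream intron (SD, n = 6). In all 9 inputs the values were 26.75% ± 4.49 and 15.95% ± 4.57. Within 50 nt of the covered exons, T made up a median of 34% to 38% of the upstream intron in the SCAF IP lists, 28% to 30% of the downstream intron and 20.9% to 22.8% of the exon itself. The clusters that were long enough but did not cover the exon lay at exons with the same range of T upstream. The inputs of the tagged lines, which were nearly symmetric, had medians of 36% to 40% T upstream. Their covering clusters had median lengths of 158 to 185 nt, against 175 to 191 nt in the SCAF IPs. Clusters were called from T→C changes, and the part of base composition or cluster length in the asymmetry was not tested.

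**Figure D3:**
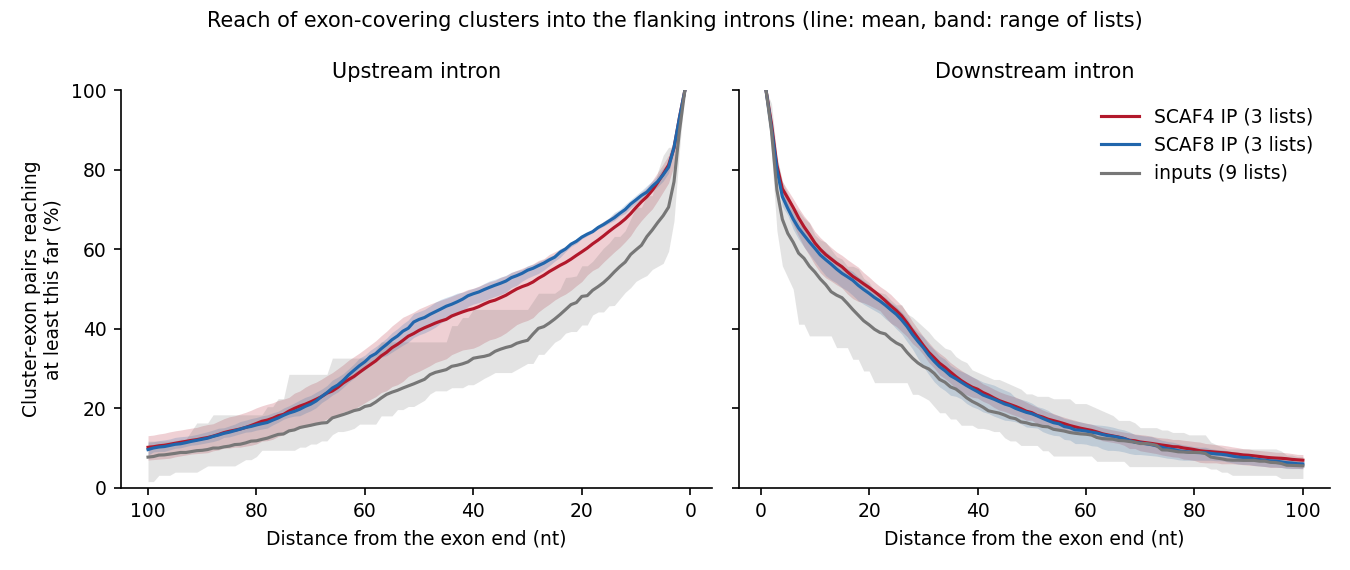
Share of cluster-exon pairs (y axis, %) that reached at least a given distance (x axis, nt from the exon end) into the upstream intron (left) and the downstream intron (right). Lines are means and bands ranges over 3 SCAF4 IP lists, 3 SCAF8 IP lists and 9 input lists. At 50 nt the upstream share averaged 41.02% in the SCAF IPs and 26.75% in the inputs, against 18.8% and 15.95% downstream.

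Covered exons were of ordinary length. The 2505 exons covered in at least 2 of the 6 SCAF IP lists had a median length of 116 nt, with quartiles of 89 and 147 nt, against a median of 125 nt with quartiles of 90 and 169 nt for all internal exons. Of the covered exons 91.1% were 50 to 200 nt long, 2.71% were shorter and 6.15% longer. The 10427 exons that clusters of at least 2 SCAF IP lists overlapped but none covered had a median of 174 nt, and 37.4% of them were longer than 200 nt. The definition favours short exons, since the median cluster of a SCAF IP list was 140 to 154 nt long. The median length of the covering clusters was 175 to 191 nt in the SCAF IPs and 158 to 185 nt in their inputs. Covered exons did not differ in length between IPs and inputs beyond the spread of lists (117.8 against 117 nt, difference 0.833 nt; exact permutation p = 0.753, adjusted p = 0.797). When only clusters in the upper part of their list by score (from the 50th percentile) were kept, covered exons were longer in the IPs by 5.33 nt (exact permutation p = 0.00649).

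**Figure D4:**
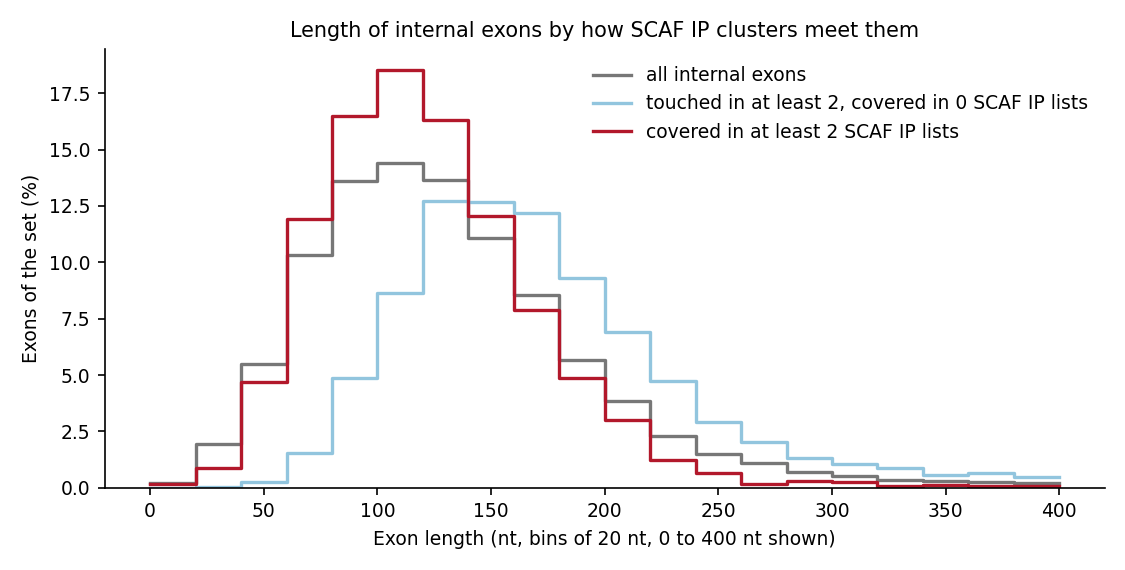
Length of internal exons (x axis, nt, in bins of 20 nt) as the share of exons in a set (y axis, %), for all internal exons, for exons covered in at least 2 SCAF IP lists and for exons touched in at least 2 but covered in no SCAF IP list. The covered exons peak near their median of 116 nt, and the exons that were touched but never covered are shifted to longer values, with a median of 174 nt.

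The share of touched exons that were covered fell with exon length in the SCAF IPs. It was 66.7% ± 7.29 for exons under 50 nt, 39.4% ± 4.09 from 50 nt to under 100 nt, 20.3% ± 3.29 from 100 nt to under 150 nt, 10.7% ± 2.51 from 150 nt to under 200 nt, 5.77% ± 2.38 from 200 nt to under 300 nt and 0.969% ± 0.439 from 300 nt on (SD, n = 6). The own inputs gave 29.1% ± 7.04, 11.5% ± 2.38 and 3.94% ± 1.46 in the classes that start at 50, 100 and 150 nt, and their few exons under 50 nt, at most 7 touched in a list, gave 33.3% to 100%. In the class that starts at 100 nt the lists of IPs and own inputs did not overlap (16.7% to 25.3% against 9% to 15.7%).

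Covered exons lay along the whole transcript. The relative rank, which runs from 0 at exon 2 to 1 at the last exon but one, had a median of 0.404 to 0.5 in the SCAF IP lists and 0.375 to 0.556 in their inputs (means 0.451 and 0.459; exact permutation p = 0.797, adjusted p = 0.797). All exons touched by SCAF IP clusters had medians of 0.429 to 0.462. Of the exons covered in at least 2 SCAF IP lists, 38.0% lay in the first part of the transcript (relative rank under 0.333) and 28.3% in the last (over 0.667), and the exons touched in at least 2 SCAF IP lists gave 37.9% and 28.9%. Exon 2 made up 12.7% of the covered exons, 13.5% of the touched and 10.5% of all internal exons. The last exon but one made up 9.94%, 9.83% and 10.5%. The median covered exon had rank 7 in a transcript of 15 exons.

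Splice sites around the covered exons were of the usual kind, with AG before 99.8% and GT after 99.2% of the exons covered in at least 2 SCAF IP lists. Their introns were shorter than average, with a median of 974 nt upstream and 931 nt downstream, against 1585 and 1482 nt for all internal exons and 1292 and 1216 nt for exons touched in at least 2 SCAF IP lists. An upstream intron under 200 nt was found at 17.0% of covered and 12.2% of all internal exons. A length that is a multiple of 3, which keeps the reading frame when an exon is skipped, was as frequent among covered (39.6%) as among all internal exons (40.2%). Exons that another GENCODE isoform of the gene skips made up 17.1% to 23.6% of covered exons in the SCAF IP lists and 25.8% to 32.1% in their inputs, so these lists did not overlap. Among exons that clusters touched, the shares were 16.5% to 19.5% and 20.3% to 22.2%. The isoform used carried no coding sequence for 17.3% of the covered exons and 9.17% of all internal exons, and exon numbers given here are those of this isoform.

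Base composition of covered exons differed little between groups. Median GC content was 48.9% to 51.0% in the SCAF IP lists and 46.2% to 50.7% in their inputs, a difference of 1.26 percentage points (exact permutation p = 0.119, adjusted p = 0.172). The same difference was 2.15 percentage points with at least 10 nt on both sides (exact permutation p = 0.0216) and 1.43 percentage points on the Ensembl canonical isoforms (exact permutation p = 0.0455). The trinucleotides CGG or CGA, searched in the RNA sense over the 100 nt centred on each covered exon, were found in 76.4% ± 1.29 of pairs in the SCAF IPs and 75.01% ± 3.8 in their inputs (SD, n = 6 each; exact permutation p = 0.446, adjusted p = 0.527). The window of 67.1% of all internal exons held them. The share was 73.6% for exons touched in at least 2 SCAF IP lists and 77.1% for exons covered in at least 2. The SCAF IP lists were less spread than the inputs, which held 61 to 194 pairs each.

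Exon-covering clusters ranked high by the score that the authors deposited with each cluster. The median percentile of their score within the list was 65.3, 65.9 and 64.98 in the SCAF4 IPs and 64.02, 65.2 and 69.8 in the SCAF8 IPs, on average 15.9 points above the middle of the list (exact sign flips p = 0.0313, the smallest possible; adjusted p = 0.058). The inputs gave 65.8 to 83.2, so that the rank was at least as high there, and the control IPs gave 62.5, 47.9 and 64.6. Clusters that were long enough to cover an exon but did not had medians of 60.7 to 65.6 in the SCAF IPs, and the covering clusters lay above them in 5 of 6 lists, all but SCAF8 IP replicate 2.

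The 6091 covered exons were mostly those of the SCAF IPs. SCAF4 IP lists alone covered 3228 exons (53.0%), SCAF8 IP lists alone 819 (13.4%), and lists of both but of no other group 1224 (20.1%). Another 717 (11.8%) were covered in the SCAF IPs and in an input or control IP list, and 103 (1.69%) in inputs or control IPs alone. Of the 2622 exons covered in a SCAF8 IP list, 66.9% were also covered in a SCAF4 IP list, and of the 5121 covered in a SCAF4 IP list, 34.3% were covered in a SCAF8 IP list. Inputs covered 653 exons, 88.5% of which a SCAF IP list also covered. These counts follow the sizes of the lists, which were not equalised.

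Coverage of a whole exon recurred in part. In the SCAF IPs, 3483 exons were covered in 1 list, 1300 in 2, 600 in 3, 322 in 4, 187 in 5 and 96 in all 6. At least 2 of 3 lists covered 1633 exons in the SCAF4 IPs and 729 in the SCAF8 IPs, and 486 exons were in both sets, 29.8% of the former and 66.7% of the latter. Leaving out the list with the most clusters, SCAF4 IP replicate 2, left 462 of the 1633 exons. An exon covered in 1 SCAF IP list was covered in another list of the same protein in a median of 33.55% of cases, overlapped by a cluster that did not cover it in 31.9%, and free of clusters in 31.9% (12 ordered pairs of lists). Between the proteins the medians were 33.2%, 29.8% and 35.04% (18 ordered pairs). These medians pool lists of unlike size, so they do not compare sharing within and between the proteins. Exons of SCAF4 IP 1 were covered in 67.3% and 53.8% of cases in the other SCAF4 IPs and in 29.2% to 43.9% in the SCAF8 IPs. Exons of SCAF8 IP 1 were covered in 23.65% and 41.8% in the other SCAF8 IPs and in 27.8% to 59.9% in the SCAF4 IPs. In the own input the medians were 6.78% covered, 18.4% touched and 74.85% without a cluster. In the opposite direction, an exon covered in an input was covered in its own IP in a median of 62.9% and without a cluster there in 8.24%.

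Of the 2505 exons covered in at least 2 SCAF IP lists, 1892 were covered in none of the 9 input and 3 control IP lists, and no cluster of these 12 lists touched 1168 of them (46.6%). With 10 nt required on both sides, 1124 exons of 664 genes were covered in at least 2 SCAF IP lists, 883 of them in no other list, and 35 in all 6. Among all 24009 internal exons that a cluster of any list touched, 40.2% were touched in at least 2 SCAF IP lists and in none of the 12 others, and among the 6091 covered exons 43.8% were. Clusters of at least 2 SCAF4 IP lists and of no SCAF8 IP list touched 11.9% of the exons touched in the SCAF IPs and 12.4% of those covered there. The reverse pattern was found for 1.43% and 0.985%. Exons covered in any list thus lay near these shares in the first pattern and in the SCAF4 pattern, and below, on 59 exons, in the reverse one. A closer background for the 2505 exons is the 15341 exons touched in at least 2 SCAF IP lists. None of the 12 other lists touched 9640 of these 15341, and the 1168 of 2505 were a smaller share.

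The exons covered in all 6 SCAF IP lists and in no other list showed how much the overhangs varied. The 8 longest of different genes, outside chromosome 8, lay in KPNB1, DDX39A, NONO, MYO19, DDX5, TRRAP, DDX3X and ABCF2. In the isoforms used, the exons of DDX39A, NONO, DDX5 and DDX3X hold no coding sequence, and another isoform skips that of NONO. Exon 13 of MYO19, a mitochondrial myosin, is 172 nt long (chr17:36510746-36510917, minus strand). Its clusters reached 52, 86 and 65 nt upstream in the SCAF4 IPs and 51, 57 and 58 nt in the SCAF8 IPs, and 41, 47, 32, 32, 30 and 41 nt downstream. No cluster of these 6 lists stopped short of 30 nt on either side, and clusters of control IP replicate 1 and of control inputs 1 and 3 touched the exon without covering it.

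Exon 11 of KPNB1, which encodes the nuclear import receptor importin β1, is 225 nt long (chr17:47668186-47668410). Upstream overhangs were 40, 66 and 74 nt in the SCAF4 IPs and 31, 83 and 9 nt in the SCAF8 IPs, and downstream overhangs were 3, 51, 50, 3, 61 and 37 nt. Both replicates numbered 1 passed the downstream end by 3 nt alone. Exon 44 of TRRAP (147 nt, chr7:98959344-98959490), from the scaffold of histone acetyltransferase complexes, was passed by 75, 147, 15, 65, 68 and 157 nt upstream and by 9, 5, 2, 68, 28 and 1 nt downstream. In 5 of 6 lists the TRRAP cluster reached farther upstream than downstream, and in 4 of 6 it ended within 9 nt of the 5′ splice site. Exon 4 of NONO (194 nt, chrX:71291779-71291972), which encodes a paraspeckle RNA-binding protein, was passed by 52, 26, 53, 70, 26 and 61 nt upstream and by 2, 38, 66, 8, 53 and 35 nt downstream.

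Among the other exons of this kind, those of ABCF2 and DDX3X had no overhang above 25 nt. Exon 13 of ABCF2 (129 nt, chr7:151215604-151215732, minus strand), from an ATP-binding cassette protein without membrane segments, had upstream overhangs of 25, 13, 14, 25, 8 and 7 nt and downstream overhangs of 5, 6, 21, 5, 5 and 1 nt. It was the only 1 of the 8 that no input or control IP cluster touched. For exon 4 of DDX3X (145 nt, chrX:41345404-41345548), an RNA helicase gene, no overhang exceeded 10 nt on the upstream and 3 nt on the downstream side in any of the 6 lists. Exon 5 of DDX5 (161 nt, chr17:64503188-64503348, minus strand), also from an RNA helicase gene, was touched by clusters of all 9 inputs, and its overhangs ran from 2 to 267 nt upstream and from 1 to 30 nt downstream. Its upstream intron is 81 nt long in the isoform used, so the overhang of 267 nt, in SCAF4 IP replicate 2, ran past this intron. Exon 2 of DDX39A (212 nt, chr19:14413013-14413224, minus strand), from an mRNA export helicase gene, was passed by 12 to 71 nt upstream and 9 to 25 nt downstream. The order of the lists by overhang differed from exon to exon.

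**Figure D5:**
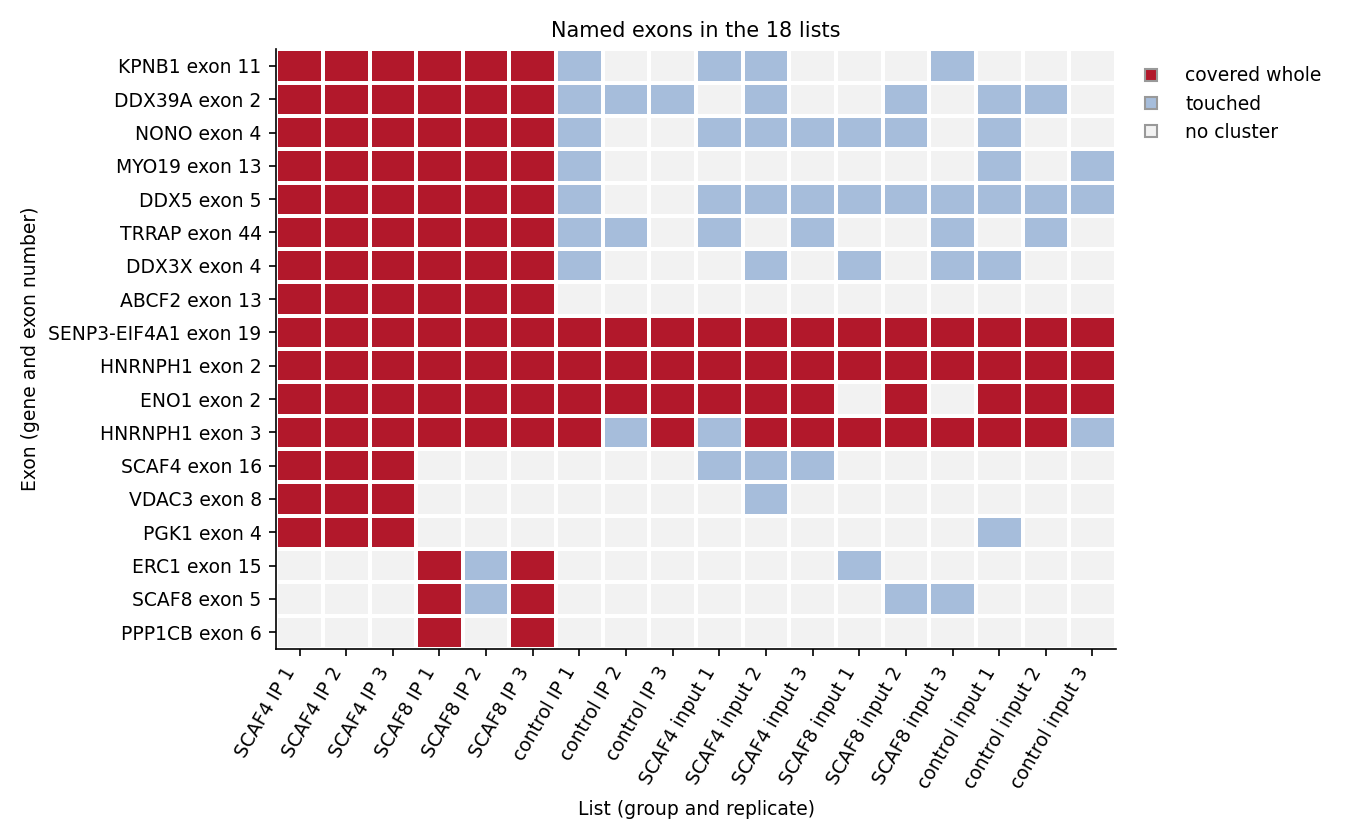
State of 18 named exons (y axis) in each of the 18 lists (x axis): covered whole, touched by a cluster that did not cover the exon, or without a cluster. From the top, the blocks are 8 exons covered in all 6 SCAF IP lists and no other list, 4 exons covered in the most other lists, 3 exons of SCAF4 IPs without SCAF8 IP clusters and 3 exons of the reverse kind, so the pattern of each block reflects how it was chosen.

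Some exons were covered in nearly every list, inputs included. Exon 19 of the readthrough gene SENP3-EIF4A1 (90 nt, chr17:7577827-7577916), which holds the sequence of the translation initiation factor gene EIF4A1, and exon 2 of HNRNPH1 (72 nt, chr5:179617989-179618060, minus strand) were covered in all 18 lists. Their covering clusters were up to 723 nt long for the former and 86 to 747 nt for the latter. Exon 2 of ENO1, a glycolytic enzyme gene (70 nt, chr1:8867988-8868057, minus strand), was covered in 16 lists, all but SCAF8 inputs 1 and 3, and exon 3 of HNRNPH1 (134 nt) in 15. HNRNPH1 encodes an RNA-binding splicing regulator, and the isoform used for it has 4 exons and no coding sequence. The exons of SENP3-EIF4A1 and ENO1 named here also hold no coding sequence in the isoforms used. In all, 285 exons were covered in at least 2 of the 12 input and control IP lists.

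Some exons were covered in the IPs of 1 protein and untouched in those of the other. No SCAF8 IP cluster touched 257 of the 1633 exons covered in at least 2 SCAF4 IP lists, and no SCAF4 IP cluster touched 16 of the 729 exons covered in at least 2 SCAF8 IP lists. Among all exons touched in the SCAF IPs, the corresponding patterns of touching made up 11.9% and 1.43%, and since the sets differ no more is read from these counts. The longest in all 3 SCAF4 IP lists were exon 16 of SCAF4 itself (158 nt, chr21:31688307-31688464, minus strand), exon 8 of VDAC3 (151 nt, chr8:42403311-42403461), a mitochondrial channel gene, and exon 4 of PGK1 (145 nt, chrX:78114016-78114160), a glycolytic kinase gene. VDAC3 was passed by 28, 97 and 11 nt upstream and 59, 50 and 31 nt downstream, and PGK1 by 1, 56 and 25 nt and by 2, 7 and 12 nt. In the SCAF8 IPs the longest were exon 15 of ERC1 (161 nt, chr12:1289852-1290012), exon 5 of SCAF8 (154 nt, chr6:154792823-154792976) and exon 6 of PPP1CB (152 nt, chr2:28788658-28788809), each covered in replicates 1 and 3.

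The genes of the tagged proteins stood apart. Of the 18 internal exons of SCAF4, clusters touched 14, 17 and 17 in the SCAF4 IPs and 13, 14 and 14 in the SCAF4 inputs, but 0 to 5 in each of the other 12 lists. The SCAF4 IPs covered 2, 8 and 6 of them, and with at least 10 nt on both sides 0, 1 and 1. Exon 16 was passed by 5 and 2 nt in replicate 1, by 3 and 2 nt in replicate 2 and by 67 and 69 nt in replicate 3. For SCAF8, clusters touched 14, 15 and 15 of 18 internal exons in the SCAF8 IPs, 7, 15 and 15 in the SCAF8 inputs, 4, 8 and 6 in the SCAF4 IPs and none in the other lists. The SCAF8 IPs covered 3, 2 and 4, and 1, 1 and 2 with 10 nt on both sides. Exon 5 of SCAF8 was passed by 1 and 4 nt and by 3 and 4 nt. RNA of the intronless tagged copy and of the endogenous gene cannot be told apart within an exon, so the covered exons of SCAF4 in the SCAF4 IPs and of SCAF8 in the SCAF8 IPs give no measure of contact with the endogenous transcripts at the 1 nt limit.

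The shortest exons covered in at least 2 SCAF IP lists were a small part of their clusters. Exon 4 of HNRNPM, 8 nt long, exon 8 of NUDT5, 9 nt, and exon 19 of MTA1, 12 nt, are shown with 30 nt of each intron (chr19:8463467-8463534, plus strand; chr10:12170870-12170938, minus strand; chr14:105468308-105468379, plus strand).
HNRNPM exon 4: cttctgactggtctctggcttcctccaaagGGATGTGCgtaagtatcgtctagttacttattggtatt
NUDT5 exon 8: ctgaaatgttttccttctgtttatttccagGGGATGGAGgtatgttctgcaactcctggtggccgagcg
MTA1 exon 19: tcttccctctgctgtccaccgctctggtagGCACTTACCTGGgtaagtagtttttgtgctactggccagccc
HNRNPM encodes a splicing regulator, and clusters covered its exon in SCAF4 IPs 1 and 2, SCAF8 IPs 1 and 3, control IP 1 and control input 1. These clusters were 215 to 346 nt long and ended 181 to 277 nt past the downstream end of the exon. The downstream intron is 88 nt long in the isoform used, so all of them ran through it into the next exon. NUDT5, a nucleotide-sugar hydrolase gene, had its exon covered in SCAF8 IPs 1 and 3, by clusters of 217 and 136 nt. MTA1, which encodes a subunit of the NuRD chromatin complex, had its exon covered in SCAF4 IPs 1 and 3, with overhangs of 95 and 99 nt upstream and 42 and 77 nt downstream. The covering clusters of the NUDT5 and MTA1 exons were mostly intronic sequence, whereas those of HNRNPM also held much of the next exon.

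Exon 5 of ZFX (588 nt) and exon 5 of RPL7A (488 nt) were the longest exons covered in at least 2 SCAF IP lists, and the sequences show their 3′ splice sites with the first 50 nt of the exon (chrX:24179153-24179232, plus strand; chr9:133350210-133350289, plus strand).
ZFX exon 5: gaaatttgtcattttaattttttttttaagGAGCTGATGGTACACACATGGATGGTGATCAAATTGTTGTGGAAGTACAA
RPL7A exon 5: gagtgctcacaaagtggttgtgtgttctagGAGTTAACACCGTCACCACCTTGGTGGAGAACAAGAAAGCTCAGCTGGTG
ZFX encodes a zinc finger transcription factor, and its exon was covered by clusters of 660 and 604 nt in SCAF4 IP 2 and SCAF8 IP 3 and touched in the other 4 SCAF IP lists. In both, the 3′ splice site was passed by 2 nt. The exon of RPL7A, a ribosomal protein gene, was covered in 2 SCAF4 IP lists and touched in the other 4 SCAF IP lists. Clusters touched the RPL7A exon in all 12 input and control IP lists, and the isoform used here carries no coding sequence for RPL7A.

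Genes differed in how many of their exons were covered. At least 1 exon covered in at least 2 SCAF IP lists was found in 1290 of the 16612 genes (7.77%). Of these, 784 had 1 such exon, 506 at least 2 and 91 at least 5. POLE, the catalytic subunit of DNA polymerase ε, had the most, with 22 of 48 internal exons. Its covered exons numbered 9, 24 and 19 in the SCAF4 IPs, 5, 8 and 17 in the SCAF8 IPs, 1, 0 and 2 in the control IPs and 0 to 3 in each input. DNMT1, the maintenance DNA methyltransferase gene, followed with 16 of 36 and counts of 2, 20 and 9 in the SCAF4 IPs, 5, 9 and 13 in the SCAF8 IPs and 0 to 2 elsewhere. In both genes the list of SCAF4 IP replicate 2 covered the most exons.

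The next genes were UBR4, a ubiquitin ligase of the N-degron pathway, with 15 of 104 exons, FANCA of the Fanconi anaemia core complex with 13 of 42, GCN1, a ribosome-bound activator of the kinase GCN2, with 13 of 56, FASN, the fatty acid synthase gene, with 12 of 41, IARS1, an isoleucyl-tRNA synthetase gene, with 11 of 30, and KPNB1 with 11 of 21. No input or control IP list covered an exon of GCN1 or FASN, for which the SCAF4 IPs covered 7, 20 and 10 and 3, 17 and 13 exons, and the SCAF8 IPs 3, 3 and 5 and 1, 2 and 4. UBR4 had 3, 24 and 18 covered exons in the SCAF4 IPs and 1, 1 and 8 in the SCAF8 IPs. KPNB1 had 11, 12 and 7, and 7, 6 and 10, so that the lists of the proteins overlapped. Cluster lists carry no expression level, and how the abundance of each transcript bore on these counts was not tested.

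Some neighbouring exons were covered in the same gene. Of the 2505 exons, 802 stood in 335 runs of at least 2 consecutive exons, and 1703 stood alone. Runs of touched exons were not counted, so these runs are not read as a trait of covered exons. Exons touched in at least 2 SCAF IP lists were 39 of the 48 internal exons of POLE and 30 of the 36 of DNMT1. The longest runs held 5 exons, among them exons 2 to 6 of POLE, exons 5 to 9 of HNRNPA2B1, exons 9 to 13 of HNRNPU, exons 2 to 6 of ENO1 and exons 4 to 8 of KLHDC4. HNRNPA2B1 and HNRNPU encode abundant RNA-binding proteins of the nucleus. Single clusters that covered several exons were rare. In the SCAF IPs 94 clusters of 56 genes covered at least 2 exons, and 3 of them covered 3, whereas 10 clusters did so in all other lists.

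A cluster of 968 nt in SCAF4 IP replicate 3 covered exons 4 to 6 of POLE (chr12:132679411-132680378, minus strand). In SCAF4 IP replicate 2, a cluster of 723 nt covered exons 18 to 20 of SENP3-EIF4A1 (chr17:7577553-7578275), and a cluster of 545 nt covered exons 7 to 9 of PLCG1 (chr20:41162936-41163480), a phospholipase gene. The introns inside these clusters were covered in full.

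Gene lists related to transcription and RNA processing gave different counts. Among 11 SR protein genes with an internal exon, which encode splicing factors that bind exonic enhancers, 10 had at least 1 exon covered in at least 2 SCAF IP lists, and 24 of their 58 internal exons were covered. Inputs or control IPs covered 12 of these 24 exons. Exon 3 of TRA2B (134 nt, chr3:185926601-185926734, minus strand) was covered in all 6 SCAF IP lists, 7 inputs and 1 control IP, whereas exon 5 of SRSF10 (54 nt, chr1:23971573-23971626, minus strand) was covered in all 6 SCAF IP lists and no other. Of the SR protein exons touched in at least 2 SCAF IP lists, 51.1% were covered in at least 2, against 16.3% over all genes. The covered share fell with exon length, as given above, and exon length was not held equal in this comparison.

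Among 14 genes of the core spliceosome, 8 had a covered exon, with 41 of 308 exons in all, 32 of them in no other list. Such an exon was found in 7.77% of all genes with an internal exon. Clusters touched all 14 spliceosome genes, 10 of the 11 SR protein genes and 21 of the 22 elongation factor genes below. The gene counts of these lists thus also reflect which genes clusters met at all. Over all genes, 1892 of the 2505 exons were covered in no other list, a share close to that of these 41. SF3B3, a subunit of the branch site factor SF3b, held 10 of them, and exon 7 (138 nt, chr16:70538323-70538460) was covered in 2 SCAF4 and 3 SCAF8 IPs and in no other list. PRPF8, the central scaffold of the spliceosome, held 8. Among 9 proteins with a CID, 4 genes held 12 covered exons, and 8 of these exons lay in SCAF4 and SCAF8, whose tagged copies are described above. CHERP held 3 and RPRD1B held 1. Of the transcription elongation factors 7 of 22 genes had a covered exon, with 14 exons, of which 13 were covered in no other list, and 4 lay in SUPT16H, a subunit of the histone chaperone FACT.

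The remaining lists held 5 of 10 large ubiquitin ligases with 23 of 711 exons, 2 of 6 PI3K-related kinases with TRRAP (12 of 376 exons), 3 of 12 genes of cytoplasmic dynein and dynactin (7 of 173 exons), 2 of 11 subunits of RNA polymerase II (5 of 84 exons) and 3 of 18 cleavage and polyadenylation factors (5 of 242 exons). POLR2A, the largest subunit of RNA polymerase II, held 4 of those 5 exons, 3 of which were covered in SCAF4 IPs alone. The polyadenylation factor genes were CPSF6, CPSF7 and NUDT21, which encode the subunits of cleavage factor I. Exon 11 of CPSF6 (190 nt, chr12:69262373-69262562) was covered in all 6 SCAF IP lists and 1 input. Over all genes 1.61% of internal exons were covered in at least 2 SCAF IP lists, and the lists of cleavage and polyadenylation factors (2.07%), PI3K-related kinases (3.19%) and ubiquitin ligases (3.23%) lay closest to this value. As a share of the exons touched in at least 2 SCAF IP lists, which was 16.3% over all genes, the covered exons made up 23.6% for the core spliceosome, 21.8% for the CID proteins and 17.95% for the elongation factors, but 15.15% for RNA polymerase II, 12.1% for the ubiquitin ligases, 11.3% for dynein and dynactin, 9.62% for the polyadenylation factors and 9.45% for the PI3K-related kinases. These lists thus lay on both sides of the share over all genes, and exon length was not held equal between them. The share of the CID proteins includes SCAF4 and SCAF8, which held most of its covered exons and whose tagged copies are described above.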

How the data were processed

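PAR-CLIP clusters came from 18 lists, made from 36 libraries. As the study's methods state, the authors trimmed reads with Trim Galore and cutadapt, aligned them with Bowtie2 (2.2.9 in the submitters' processing notes) to GRCh38, removed duplicates with Picard and called clusters with PARalyzer. The alignment options given there are those of the original Bowtie, and neither program splits reads over introns. The lists precede any removal of clusters found in inputs or control IPs. The deposited score column is not named by the authors and ran from 0.501 to 1, so its values were used only as ranks within a list. The lists give no reads or depth.

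Clusters were joined to GENCODE 44 internal exons on the same strand, at a minimum of 1 nt in both introns, with pandas 2.3.3 and pysam 0.24.0 under Python 3.11.15. No cluster ran past a chromosome end of GRCh38. The list was the unit of all comparisons. Tests were exact permutations of lists or sign flips, two-sided, with Benjamini-Hochberg adjustment over 13 tests and a threshold of 0.05, and the scripts were tested on simulated data. The methods call the replicates biological, and the labels do not say whether they were separate cultures.

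Named exons were the 8 covered in the most SCAF IP lists and in no other list (1 per gene, the longer first, none on chromosome 8), the 4 covered in the most other lists, the 3 shortest and 3 longest covered in at least 2 SCAF IP lists (1 of the longest is not reported here), and the 3 covered in the most lists of 1 protein and untouched in the other. Named genes were the 8 with the most covered exons, those of the 3 clusters over the most exons, and members of the gene lists. The members, gene lists and tests were chosen with earlier results of these data known. Alternatives were the Ensembl canonical isoform, 10 nt in both introns, the upper scores, clusters overlapping an internal exon as denominator, equal weight of 4 length bins, removal of clusters overlapping control IP clusters, the replicate block, and leaving out lists.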

Additional observations from a re-analysis of the deposited data

How the results depend on the processing

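IPs and inputs share replicate numbers, but the sources do not state that a number marks 1 extract. Deviations over 1283 genes correlated at -0.0216 to 0.261 for same-numbered lists and -0.198 to 0.0745 for others, and not every IP correlated best with the input of its own number. With the replicate number as a block, the share of exon-covering clusters still differed by 3.67 percentage points between SCAF IPs and own inputs (exact p = 0.0313, the smallest that block allows), and the block changed no call. Of the settings that leave out no list, 53 recomputed results (the block included) were classed as unchanged. For tests this meant the same direction and side of the threshold, and for counts of exons a value of similar size. The length of covered exons differed by 5.33 nt with the upper scores. Relative rank turned to 0.0123 with at least 10 nt on both sides and 0.0117 with the upper scores, GC content differed by 1.43 percentage points on canonical isoforms and 2.15 with 10 nt, and the CGG or CGA share turned to -3.37 with 10 nt. None of these causes was tested. Exons covered in at least 2 of 3 lists numbered 733 (10 nt), 807 (upper scores) and 1002 (clusters overlapping control IPs removed) for SCAF4, and 308, 370 and 333 for SCAF8. Those of at least 2 SCAF IP lists and no other list numbered 883 (10 nt) and 1193 (upper scores).

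Leaving out lists gave differences from the control IPs of 2.44 to 4.38 percentage points of all clusters and 10.9 to 19.01 of those long enough, downstream minus upstream overhangs of -11.25 to -8.25 nt, and score percentiles 15.1 to 16.5 above the middle. With 4 lists against 2, or with 4 or 5 sign flips, no p could pass the threshold. With 6 lists against 2 it could: the difference in all clusters was 3.95 without control IP replicate 1 (exact p = 0.0357), but 2.70 without replicate 2 and 3.23 without replicate 3 missed it (exact p = 0.0714 each), whereas the difference among clusters long enough passed in all 3 cases (exact p = 0.0357). Exon length differences ranged from -0.25 to 2 nt, and were also below 0 without SCAF8 IP replicate 1 (-0.2) and SCAF4 input replicate 2 (-0.167). Rank differences ranged from -0.0421 to 0.0208, and were above 0 without SCAF4 IP replicate 1 (0.00183), SCAF4 input replicate 3 (0.0118) and SCAF8 input replicate 1 (0.000658). GC differences ranged from 0.748 to 1.81 percentage points, with 1.64 (exact p = 0.0498) without SCAF4 input replicate 3. Motif differences ranged from -0.196 to 3.70, with 2.74 (exact p = 0.0238) without SCAF4 input replicate 2. Counts followed list sizes. They ranged from 462 (without replicate 2) to 1383 for SCAF4, with 578 without replicate 3, from 245 (without replicate 3) to 433 for SCAF8, with 415 without replicate 1, and from 841 (without replicate 3) to 1996 for both proteins with no other list, with 1034 without SCAF4 IP replicate 2. The lists hold no depth, so a missing cluster is no sign of missing contact.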
